A study of Homo sapiens with 2 samples.

Results

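The 8 genes described here encode the proteins by which a cell senses its sterols and regulates their uptake: SREBF1, SREBF2, SCAP, INSIG1, INSIG2, MYLIP, STARD4 and NPC1. They were selected by symbol from the 60616 genes of the deposited tables, and all 8 were found, each in 1 row. The list was drawn up with earlier results of these data known, among them the low FPKM ratio of INSIG1 and of sterol synthesis genes in the same pair of libraries, so the members were in part chosen on the values given below, which are a description and were not tested. The libraries come from HSC-3, a head and neck squamous cell carcinoma (HNSCC) line of the tongue. Cells in 1 library received the vehicle, 0.1% DMSO, and cells in the other 1 µM FIN56 for 48 h, with the time labelled for the FIN56 library only. Both cultures grew in DMEM with 5% fetal bovine serum, which itself carries lipoprotein cholesterol. Each condition is a single culture and library, so nothing below has a replicate check, and anything else that set the cultures apart is confounded with FIN56 and cannot be told apart from it.

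FIN56 drives cells towards ferroptosis, a form of death by lipid peroxidation. It lowers the GPX4 protein and also binds squalene synthase, an enzyme of the sterol pathway. Sterol regulatory element-binding proteins (SREBPs) are transcription factors made as precursors in the membrane of the endoplasmic reticulum. When the membrane is poor in cholesterol, the escort protein SCAP carries them to the Golgi apparatus, where proteases release the active factor, which turns on genes of sterol synthesis and of low-density lipoprotein (LDL) uptake. When cholesterol or oxysterols are plentiful, INSIG proteins hold SCAP and the precursor back, and INSIG1 is itself an SREBP target, so its transcript is widely read along with SREBP output. Liver X receptors (LXRs), which bind oxysterols, act in the opposite sense by raising sterol export and the ligase MYLIP, which sends lipoprotein receptors to degradation.

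The libraries held 70184503 (DMSO) and 73062165 (FIN56) rounded RSEM expected counts, in which a read that matches several genes is shared out among them. Levels are given as FPKM, which is scaled for depth and effective transcript length and so allows genes to be set side by side. The squamous epithelial markers KRT5, KRT14, KRT6A, TP63, CDH1 and EPCAM were all present, with a summed FPKM of 4071 in DMSO and 3691 in FIN56. The fibroblast list (5 genes) summed to 5.10 and 2.92, the leukocyte list (3 genes) to 3.62 and 5.15, with PTPRC and CD3E at 0, and the endothelial list (3 genes) to 0.08 and 0.08. Their part in the results below was not tested. A difference was called when the ratio of FPKM values, FIN56 over DMSO, was 1.5 or more or 1/1.5 or less. Each ratio is given with a 95% Clopper-Pearson interval from the rounded expected counts, which covers counting error only and treats reads as independent, although without molecular identifiers some may be copies of 1 molecule.

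To show what lies before these genes, the RefSeq promoter windows (GRCh38.p14, 250 bases before to 50 after the start) of all 8 members were searched on both strands for the core of the sterol regulatory element, TCACNCCAC, the E-box CACGTG that SREBPs also bind, the CCAAT box, which is bound by their partner NF-Y, and the GC box GGGCGG, bound by Sp1. The core element was found in the window of 1 member, SREBF2, and in 1.13% of all 35116 windows. It was found in 0 of the 38 other pathway genes, described below, that had a window. These include HMGCS1 and SCD, listed below as SREBP targets, so a window without these letters is not read as a gene without the element. An E-box lay before INSIG1 and SCAP (7.26% of all windows held one), and a CCAAT box before SREBF2, INSIG1, STARD4 and MYLIP (34.6%). A GC box was present in the windows of all 8 members and in 45.0% of all windows, and none is printed. Windows were 1 per gene, except for INSIG2 with 2. The sites of the members with lower transcripts are printed here, to show which of these letters each carries, as 30 bases of the gene's strand, 5′ to 3′, with the match in capitals; ATTGG is CCAAT on the opposite strand. None of the printed matches overlaps another match, while 2 neighbouring GC boxes share a base in both SREBF2 and INSIG1.
SREBF2, core element, chr22:41832962-41832991, plus strand: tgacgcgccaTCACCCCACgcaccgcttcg
SREBF2, CCAAT box, chr22:41832987-41833016, plus strand: cttcgctcgcccATTGGctgagatgagcct
INSIG1, E-box, chr7:155297811-155297840, plus strand: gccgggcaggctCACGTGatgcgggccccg
INSIG1, CCAAT box, chr7:155297696-155297725, plus strand: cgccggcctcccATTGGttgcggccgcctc
STARD4, first CCAAT box, chr5:111512679-111512708, minus strand: atttatcggccaCCAATcagccctccacac
STARD4, second CCAAT box, chr5:111512648-111512677, minus strand: ctcccgcgccagCCAATccgaacaagcgca

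The SREBF2 core element begins 133 bases before the start and its CCAAT box 106 bases before it. In INSIG1 the E-box begins 55 and the CCAAT box 170 bases before the RefSeq start, and since GENCODE places the outermost start of the gene at 155297776, the E-box lies within its annotated span. In STARD4 the CCAAT boxes begin 161 and 130 bases before the start. The 1 window of SREBF1, near the outermost annotated start of the gene, held no core element, E-box or CCAAT box. The windows of INSIG2 and NPC1 held none either. Starts of these genes outside the windows were not searched, so such sites elsewhere in them are not excluded. A match of letters is a description of the sequence and not a measured binding site.

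In FIN56-treated HSC-3 cells 4 of the 8 members were lower by the threshold, INSIG1, SREBF1, STARD4 and SREBF2, and 0 were higher. Of the 24454 genes detected in both libraries (FPKM above 0), 17.3% were lower and 14.7% higher. Of the 12638 genes that reached an FPKM of 1 in each library, which include all 8 members, 6.77% were lower and 3.87% higher. The members had been chosen with this contrast in view, so neither their share nor their median ratio is read against that background. The median FPKM ratio of the members was 0.715. It was 1.00 over all genes with an FPKM above 0 and 1.02 over those with at least 1. The members were well covered, with between 621 and 9791 expected counts in each library. In a whole culture, a lower level of a transcript in each cell and fewer cells that express it cannot be told apart.

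**Figure D1:**
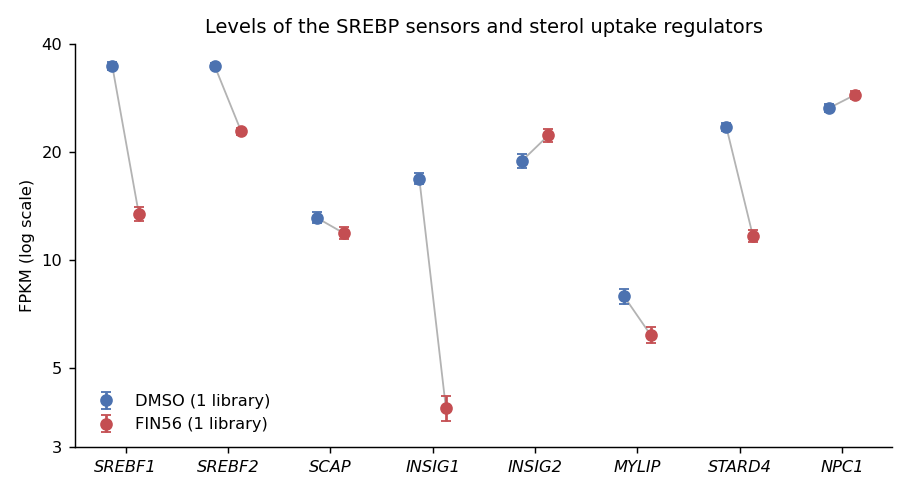
FPKM of each member (log axis) in the DMSO library (blue) and the FIN56 library (red), 1 library each, with exact Poisson 95% intervals of the counts as bars, which cover counting error only. INSIG1 differs most, with 16.86 in DMSO and 3.85 in FIN56, while for SCAP, INSIG2 and NPC1 the paired points lie close to each other.

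The transcripts of both SREBP factors were lower, SREBF1 more than SREBF2. SREBF1 (ENSG00000072310, chr17:17810399-17837002, minus strand, 19 exons in the canonical transcript) encodes SREBP-1a and SREBP-1c, the latter mainly a driver of fatty acid synthesis. Its FPKM was 34.84 in DMSO and 13.42 in FIN56, from 5916.37 and 2003 expected counts. The FPKM ratio was 0.385 (95% interval 0.366 to 0.405), a level 61.5% lower in FIN56. By counts scaled to the library totals it was 0.325. SREBF2 (ENSG00000198911, chr22:41833105-41907306, plus strand, 19 exons) encodes SREBP-2, the main activator of cholesterol synthesis genes. Its FPKM was 34.87 in DMSO and 22.84 in FIN56, from 9790.54 and 7400.73 expected counts. The FPKM ratio of 0.655 (0.635 to 0.675) lay just inside the threshold of 0.667, and its interval reached beyond it. The count ratio of SREBF2 was 0.726 (0.704 to 0.748) and its TPM ratio 0.669, both on the other side. SREBF2 was thus lower in the FIN56 library by each measure, but its call rested on the FPKM values.

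The 2 factors had stood at nearly the same level in DMSO, with SREBF1 at 0.999 of the FPKM of SREBF2 and a sum of 69.71. In FIN56 SREBF1 stood at 0.588 of SREBF2 and the sum was 36.26. The order of the factors in DMSO was within counting error, since the Poisson intervals of 33.96 to 35.74 for SREBF1 and 34.18 to 35.57 for SREBF2 overlap. In FIN56 those of SREBF1 (12.84 to 14.02) and SREBF2 (22.32 to 23.37) do not. The FPKM and count ratios of the factors part in opposite directions, which reflects the effective length that RSEM sets in each library from its estimated mix of transcripts. Relative to the median gene, this length was 0.847 times as long in FIN56 as in DMSO for SREBF1 and 1.11 times for SREBF2. Over the 14247 genes with 100 or more expected counts between the libraries, the central 95% spans 0.807 to 1.18, so both lie within the usual range. No table analysed here gives values by transcript, so a shift between the SREBP-1a and SREBP-1c forms was not examined.

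Among the escort and retention proteins, INSIG1 was lower and its relative INSIG2 was not. INSIG1 (ENSG00000186480, chr7:155297776-155310235, plus strand, 6 exons) had FPKM values of 16.86 (DMSO) and 3.85 (FIN56), from 2777 and 621 expected counts. The FPKM ratio was 0.228 (0.209 to 0.249), or 4.38-fold lower, and the count ratio was 0.215. Its expected counts were whole in both libraries, so RSEM shared none of its reads out by fractions. INSIG2 (ENSG00000125629, chr2:118088452-118110997, plus strand, 6 exons), which holds SCAP back in the same way, had FPKM values of 18.87 and 22.26, from 1992 and 2216 expected counts. Its FPKM ratio was 1.18 (1.11 to 1.25) and its count ratio 1.07 (1.01 to 1.14), so it was slightly higher and far below the threshold by both. SCAP (ENSG00000114650, chr3:47413681-47477126, minus strand, 23 exons), the sterol-sensing escort, had FPKM values of 13.10 and 11.88, from 3074 and 2985 expected counts, with an FPKM ratio of 0.907 (0.862 to 0.954).

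The makeup of the INSIG pair therefore differed between the libraries. INSIG1 stood at 0.893 of the FPKM of INSIG2 in DMSO and at 0.173 of it in FIN56, and made up 47.2% and 14.7% of their sum. The summed FPKM of the pair was 35.73 in DMSO and 26.11 in FIN56. SCAP, their shared partner, changed places with INSIG1 in rank, lying below it in DMSO and above it in FIN56. These are transcript levels, and the INSIG1 protein is also regulated by rapid degradation, which was not measured in these libraries.

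Of the 3 genes of LDL uptake and sterol transport, STARD4 was lower by the threshold, MYLIP had a ratio below 1 that did not reach it, and NPC1 was at about the same level in both libraries. STARD4 (ENSG00000164211, chr5:111496033-111512590, minus strand, 6 exons) is a soluble carrier that moves cholesterol between membranes and is itself induced when sterols are low. Its FPKM was 23.50 in DMSO and 11.65 in FIN56, from 5428.78 and 2578.86 expected counts. The FPKM ratio was 0.496 (0.473 to 0.520) and the count ratio 0.456. MYLIP (ENSG00000007944, chr6:16129086-16148248, plus strand, 7 exons), the LXR-induced ligase also called IDOL, was the least abundant member in DMSO. Its FPKM was 7.91 and 6.17, from 1651 and 1341 expected counts, with a ratio of 0.780 (0.725 to 0.839) by FPKM and 0.780 by counts. NPC1 (ENSG00000141458, chr18:23506184-23586506, minus strand, 25 exons), the lysosomal membrane protein that exports LDL-derived cholesterol, had 6254.71 and 6251.61 expected counts. Its FPKM was 26.53 in DMSO and 28.94 in FIN56, a ratio of 1.09 (1.05 to 1.13). By counts the ratio was 0.960 (0.927 to 0.995), so the direction for NPC1 turns with the measure and none is stated.

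**Figure D2:**
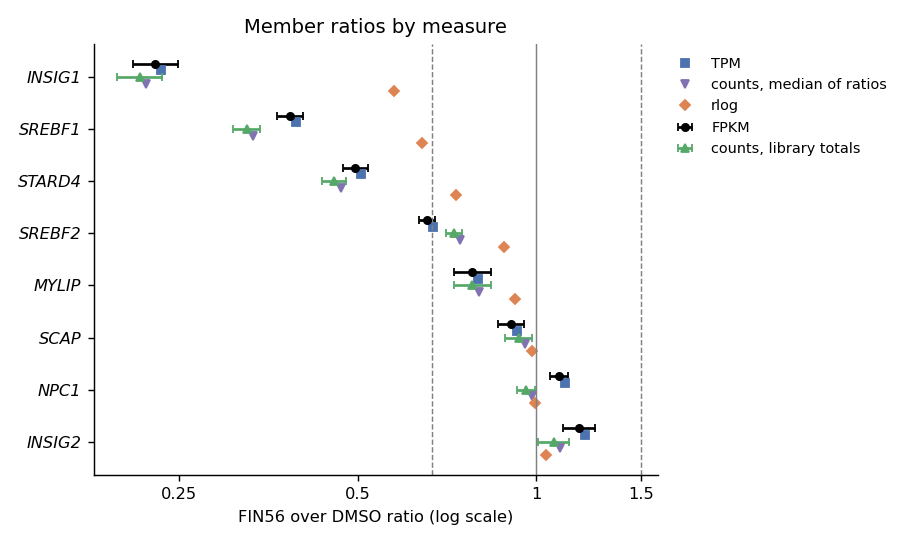
Ratio of FIN56 over DMSO for each member (log axis) by FPKM, TPM, expected counts scaled by library totals or by median-of-ratios size factors, and deposited rlog values. Bars are 95% counting intervals and dashed lines mark 1.5 and 1/1.5. INSIG1 and SREBF1 lie below the lower line by each measure shown, SREBF2 lies close to it except by rlog (0.882), and NPC1 lies on either side of 1.

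By level, the order in DMSO was SREBF2, SREBF1, NPC1, STARD4, INSIG2, INSIG1, SCAP and MYLIP. In FIN56 it was NPC1, SREBF2, INSIG2, SREBF1, SCAP, STARD4, MYLIP and INSIG1. Neighbours whose counting intervals overlapped in FIN56 were SREBF2 with INSIG2 and SCAP with STARD4. INSIG1 went from percentile 78.2 of the 24454 genes in DMSO to percentile 58.9 in FIN56, and SREBF1 from 87.8 to 74.6. For NPC1 the percentiles were 84.6 and 85.5.

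Within the whole table INSIG1 lay at the edge, but its low ratio was known when the members were chosen, so the ranks are a description. Of the same 14247 genes, 17 (0.119%) had an FPKM ratio as low as that of INSIG1, itself included, against 119 (0.835%) for SREBF1, 343 (2.41%) for STARD4 and 1162 (8.16%) for SREBF2. With an FPKM of at least 5 in either library there were 3 such genes among 9717. The other 2 were AC073896.1 and SCD, the stearoyl-CoA desaturase. The genes nearest to INSIG1 by the distance between their log2 FPKM values in the 2 libraries were LHPP (distance 0.436), GSTZ1 (0.552), ALDH16A1 (0.619), MIR210HG (0.622) and CPA4 (0.623). Their FPKM ratios ran from 0.348 for LHPP to 0.391 for GSTZ1. This likeness rests on 2 libraries and describes level and ratio only.

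**Figure D3:**
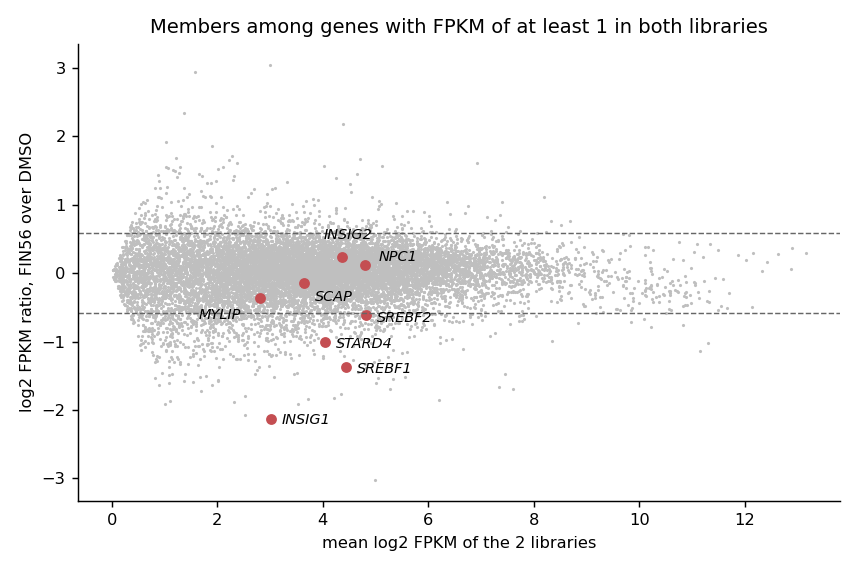
Log2 FPKM ratio, FIN56 over DMSO, against the mean log2 FPKM for the 12638 genes that reached an FPKM of 1 in each library (grey), with the 8 members in red and dashed lines at ratios of 1.5 and 1/1.5. INSIG1 and SREBF1 lie at the lower edge of genes of their level, and SCAP, INSIG2 and NPC1 lie within the bulk.

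The other genes of the pathway were read from 7 lists by role, with 49 genes in all, each detected in both libraries. By the threshold 10 were lower and 0 higher, except that GRAMD1C was higher by counts scaled by library totals, TMM or median-of-ratios factors. Of all genes with an FPKM of at least 1 in each library, 6.77% were lower and 3.87% higher, and a list of 3 to 12 genes can hold 0 or 1 called gene at that share, so such counts are not read as a result about a list. The median FPKM ratio of the 49 genes was 0.930. The lower genes were 7 enzymes of the SREBP target lists, 2 LXR genes and the carrier STARD5. Of the 6 genes for activation and escort, 0 were lower and 0 higher, with a median ratio of 1.15. The site-1 protease gene MBTPS1 had FPKM values of 34.60 and 37.15 (ratio 1.07), and the site-2 protease gene MBTPS2 had 5.91 and 8.07 (1.37, the highest of the list). SPRING1, which assists the site-1 protease, had a ratio of 1.22, and ERLIN1, an endoplasmic reticulum protein that restrains SREBP activation, the lowest at 0.770. The 6 genes of sterol-regulated protein degradation, by which INSIG1 itself is turned over, also held 0 lower and 0 higher, with a median of 1.08 and a lowest ratio of 0.726 for VCP. FAF2, the highest, had FPKM values of 34.31 and 44.69. The ligase RNF145 stood at 1.02 and RNF139 at 1.15.

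Of the 3 lipoprotein receptor genes read here, 0 were lower and 0 higher, with a median ratio of 0.867. VLDLR and LRP8, receptors that MYLIP targets, had ratios of 0.867 and 0.949, and LRP8 was the highest of the list. SCARB1, a receptor for high-density lipoprotein, was the lowest, with FPKM values of 23.10 and 18.42 (0.797). All 3 ratios thus lay below 1, as did those of 5832 of the 12638 genes with an FPKM of at least 1 in each library. A link between these transcripts and MYLIP was not tested.

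In the list of lysosomal and intracellular sterol transport, 1 of 12 genes was lower, near the 6.77% over all genes with an FPKM of at least 1, and 0 were higher, with a median ratio of 1.04. The lower gene was STARD5, a relative of STARD4 with a lipid-binding START domain, at FPKM values of 6.95 and 3.79 (ratio 0.545). NPC2, the soluble partner of NPC1 in the lysosome, had 280.24 and 304.49 (1.09), and SOAT1, which stores cholesterol as esters, had 19.87 and 19.88 (1.00). OSBPL2 was the highest at 1.31. The LXR list had 2 lower genes of 5 and a median of 0.745. NR1H3, which encodes LXR-alpha, had 6.67 and 3.68 (0.552), and LPCAT3, a phospholipid acyltransferase induced by LXR, had 29.56 and 13.46 (0.455). The cholesterol exporters ABCA1 (0.858) and ABCG1 (0.745) did not reach the threshold, nor did NR1H2, the gene of LXR-beta (0.945).

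The last 2 lists hold enzymes known as targets of the factors. Both were drawn up with earlier results of these data known, among them low ratios of sterol synthesis genes. Their counts and medians are therefore descriptions and not independent evidence. Of the 12638 genes with an FPKM of at least 1 in each library, 6.77% were lower and 5832 had a ratio below 1. Of 9 enzymes under SREBP-2, 4 were lower (LSS, MVD, DHCR7 and IDI1), and all 9 had ratios below 1, from 0.501 for LSS to 0.728 for CYP51A1. Their median was 0.676. Of 8 fatty acid genes under SREBP-1, 3 were lower, and the median was 0.818. SCD had FPKM values of 90.62 and 11.14 (0.123), FASN had 31.69 and 16.70 (0.527), and FADS2 had 5.66 and 3.62 (0.640). ACLY, ACACA and ELOVL6 lay between 0.931 and 1.02, and GPAM was the highest at 1.38, so its ratios were spread more widely than those of the SREBP-2 list; the difference between the lists was not tested.

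**Figure D4:**
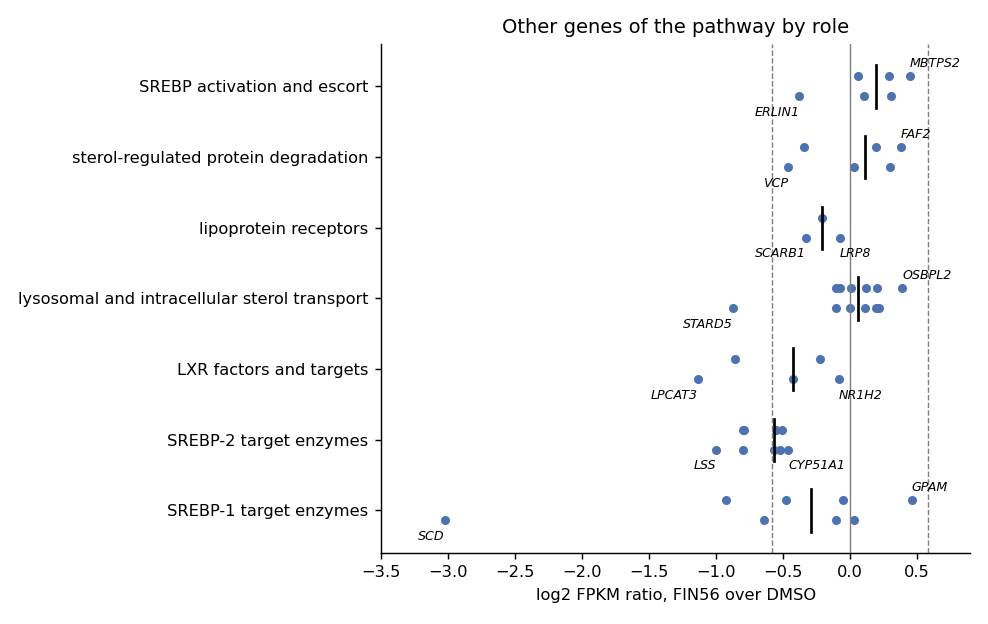
Log2 FPKM ratio, FIN56 over DMSO, of the 49 other pathway genes (points) in 7 lists by role, with the median of each list as a black bar and dashed lines at ratios of 1.5 and 1/1.5; the lowest and highest gene of each list is named. The medians of the activation, degradation and transport lists lie to the right of 0 (log2 0.20, 0.12 and 0.06), and those of the receptor, LXR, SREBP-2 and SREBP-1 lists to its left (-0.21, -0.42, -0.57 and -0.29).

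Reads from neighbouring genes were set beside the members. STARD4 shares 2195 bases of its locus with STARD4-AS1 on the opposite strand, which had 155.71 and 107.27 expected counts. SREBF2 shares 1561 bases with SREBF2-AS1, which had 10.87 and 6.47. SREBF1 overlaps RAI1 over 1055 bases (6860.63 and 7354.14) and NPC1 overlaps RMC1 over 25639 bases (2104.29 and 2450.39), both on the opposite strand. The library kit keeps strand, but whether the counting used it is not given in the sources used here. The expected counts of SREBF1, SREBF2, STARD4 and NPC1 were not whole in both libraries, whereas those of INSIG1, INSIG2, SCAP and MYLIP were, within 0.005 of a count. The part of shared reads in the ratios was not tested.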

How the data were processed

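RNA of 1 DMSO and 1 FIN56 library of HSC-3 cells was sequenced after TruSeq stranded mRNA preparation. By the methods for tumor RNA, taken here to hold for these libraries, the authors trimmed reads with AfterQC, aligned them with STAR 2.6.1a to GRCh38 and ran RSEM 1.3.1. The deposited expected counts are raw estimates. The deposited FPKM values, with 2 decimals, are scaled for depth and effective length. The deposited TPM values add up to the same total in both libraries. The deposited rlog values are on the log2 scale and come from DESeq2 1.26.0. Columns were assigned to libraries by their names.

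Ratios of FPKM, FIN56 over DMSO, were computed for 24454 genes above 0 in both libraries and compared with 1.5 in whole hundredths of FPKM. With 1 library per condition there was no test. Intervals at 95% are exact Clopper-Pearson (ratios) and Poisson (levels) limits on rounded expected counts. With 70184503 and 73062165 counts, counting error is small for these genes, and the error between cultures is unknown. The intervals and the threshold were also run on simulated Poisson counts, with calls made on count ratios and no variation between cultures. That run checks the computation only and says nothing of the error between cultures or of calls on FPKM. The members, lists and rule for named genes (members, list genes and the 5 genes nearest to INSIG1) were chosen with earlier results of these data known. Alternatives were TPM, rlog, library totals, edgeR 4.0.16 TMM, DESeq2 1.42.0 median-of-ratios, pseudocounts of 0.1 and 1 FPKM, minima of 1 FPKM or 10 expected counts in both libraries, and a threshold of 2. Positions came from GENCODE release 44 on GRCh38 (99.7% of identifiers found) and promoter windows from RefSeq on GRCh38.p14, with all 8 members and 38 of the 49 other genes matched. Some genes of the pathway and marker lists are not reported here, and every count, sum and median of a list covers the rest. Python 3.11.15, scipy 1.17.1, pandas 2.3.3 and R 4.3.3 were used.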

Additional observations from a re-analysis of the deposited data

How the results depend on the processing

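No paired analysis was possible because DMSO and FIN56 have a single library each, which also leaves no replicate to omit. Of the 8 members 4 were lower. With the deposited rlog values, which draw libraries towards each other by construction, 2 were, INSIG1 and SREBF1. The other alternatives gave 3 or 4, and under each alternative 0 members were higher. Of the 49 other genes 10 were lower, against 1 with rlog values (SCD) and 2 at a threshold of 2 (SCD and LPCAT3). None was higher by FPKM, and 1 was (GRAMD1C) with library totals, TMM and median-of-ratios scaling. Of all genes with an FPKM of at least 1 in each library, 6.77% were lower and 3.87% higher by FPKM. The share of all genes called was not computed under rlog values or a threshold of 2. The smaller counts there are therefore not read as particular to these genes. The 56 member ratios recomputed by another measure, scaling or pseudocount stayed within the counting interval of the FPKM ratio in 31 cases. Most of these were TPM or pseudocount ratios. TPM differs from FPKM by a common factor in each library, and small pseudocounts move most of these genes little, so that closeness is by construction. The rlog ratio of each member lay outside its interval. INSIG1 ranged from 0.214 to 0.576, SREBF1 from 0.325 to 0.642, STARD4 from 0.456 to 0.733 and SREBF2 from 0.656 to 0.882, all below 1. NPC1 ranged from 0.959 to 1.12. Counting depth limits these genes little, while the missing replicates and, for SREBF2, STARD4 and NPC1, the choice of measure do.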

Other observations

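Further families around the members were picked by their symbols with the data already in view, and are given as values. From the START domain family to which STARD4 belongs, only the 9 genes with a STARD symbol were read, and 6 reached an FPKM of 1 in each library. STARD4, already chosen as a member, and STARD5 were the 2 below the threshold. Of all genes at that level 6.77% were lower. The others were STARD10 (FPKM ratio 0.805), STARD3 (0.952), STARD13 (1.09) and STARD7 (1.19), the last a carrier of phosphatidylcholine to mitochondria. In the oxysterol binding protein family, whose members exchange sterols and phosphoinositides between membranes, 10 of 11 genes reached that level, with 0 lower and 0 higher and a median ratio of 1.07. OSBPL5 had an FPKM ratio of 0.812 beside a count ratio of 0.492, from 500 and 256 expected counts.

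The COPII coat, which packs SCAP with its SREBP cargo into vesicles leaving the endoplasmic reticulum, had 11 genes at that level, 0 lower and 1 higher, with a median ratio of 1.05. Of all genes at that level 6.77% were lower and 3.87% higher. A count of 1 among 11 is therefore not read as a result about the coat. The higher gene was SAR1A, the small GTPase that starts coat assembly, with FPKM values of 76.17 and 140.18 (ratio 1.84), while the 95% counting interval of its count ratio was lower, from 1.23 to 1.29, with 11176 and 14686 expected counts. The measures parted the other way for GRAMD1C, a sterol carrier at membrane contacts, which had a count ratio of 1.56 (95% interval 1.32 to 1.85) beside an FPKM ratio of 1.15.

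The microRNA genes MIR33A and MIR33B, which lie within SREBF2 and SREBF1, were listed at 0 in both libraries. The mRNA kit is not made to capture RNAs this short, so the data hold no reading of miR-33.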
